A study of Mus musculus with 22 samples.

Results

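The genes described here are the 6 cyclin-dependent kinase (CDK) inhibitor genes of the mouse other than Cdkn1a: Cdkn1b (p27), Cdkn1c (p57), Cdkn2a (p16 and p19Arf), Cdkn2b (p15), Cdkn2c (p18) and Cdkn2d (p19). They were taken by gene symbol, as a set proposed with earlier results of these data known, and are 6 of the 48709 Ensembl genes counted in each of the RNA-seq tables. The libraries, 18 in all and 3 per group, were made from polyA-selected RNA of the ventricles of E13.5 mouse hearts. All embryos carried Nkx2.5-Cre, which recombines floxed alleles in the Nkx2.5 lineage of cardiac precursors, on a C57/Bl6 background. Experiment 1 compared LIN9 wt with LIN9 KO ventricles (Lin9 fl/fl). Its labels name no Sav1 genotype, and Sav1 is taken here to be wild-type in both groups. Experiment 2 held a control group (LIN9 and Sav1 wild-type), LIN9 KO with wild-type Sav1, Sav1 KO (Sav1 fl/fl) with wild-type LIN9, and double knockouts of LIN9 and Sav1. The labels call the LIN9 control genotype wild-type, whereas the results and legends of the study give it as Lin9 fl/+. As the whole ventricle was used, cells outside the Cre lineage were also measured, and in such bulk samples fewer cells of a type and less RNA per cell cannot be told apart. A legend of the study describes its LIN9 comparison as 2 biological replicates, each in triplicate. The legend does not say whether these are experiments 1 and 2, so the 3 libraries of a group may belong to 1 biological replicate. The methods of the study give RNA isolation in triplicate for each genotype. Neither the legend nor the methods say whether the 3 libraries of a group came from separate embryos, so p-values measure only the spread between these samples. Libraries of a group differed beyond sampling noise in every pair, with a chi-square per degree of freedom over genes from 1.22 (control, experiment 2) to 26.2 (LIN9 KO, experiment 1).

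CDK inhibitors hold back the cell cycle by binding the kinases that drive it. Proteins of the Cip/Kip family (p21, p27 and p57) bind complexes of cyclins with CDK2 and related kinases, while proteins of the INK4 family (p15, p16, p18 and p19) bind CDK4 and CDK6 and keep them from D-type cyclins, which leaves the retinoblastoma protein RB active. Cardiomyocytes divide in the embryo and leave the cell cycle around birth, and p57 and p27 are known from the embryonic heart. LIN9 is a core subunit of the MuvB complex, which takes part in repression of cell cycle genes in the DREAM complex and in activation of G2/M genes together with B-MYB and FOXM1. SAV1 is an adaptor of the Hippo kinases, which restrain the coactivator YAP.

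Cdkn1b lies at chr6:134920401-134925513 on the plus strand of mm10 (GENCODE M21). Cdkn1c lies at chr7:143458339-143461050 on the minus strand, in an imprinted domain in which the maternal copy is expressed. Cdkn2a (chr4:89274471-89294653) and Cdkn2b (chr4:89306299-89311039) are neighbours on the minus strand of chromosome 4, and Cdkn2c (chr4:109660876-109667189) is on the same chromosome and strand. Cdkn2d lies at chr9:21288410-21291407 on the minus strand. Of the exonic bases of Cdkn1c, 30.7% are shared with exons of the antisense gene Gm44732, which had 0 counts in every one of the 18 libraries. The Cdkn2a count joins the transcripts for p16 and p19Arf, which start at different first exons and cannot be separated in a count per gene.

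RefSeq promoter windows of 300 bases (250 before to 50 after a start site, build GRCm38.p6) were found for 5 of the 6 genes, in 7 windows, with Cdkn1c not matched. Both strands were searched for the cell cycle genes homology region (CHR; TTTGAA or TTCGAA), through which MuvB contacts DNA, and for E2F (TTTCCCGC, TTTCGCGC, TTTGCCGC or TTTGGCGC), TEAD (GGAATG) and FOXO (TGTTTAC) motifs. A CHR motif occurred in 19.2% of the 32851 windows of all genes, an E2F motif in 2.26%, a TEAD motif in 14.7% and a FOXO motif in 3.65%. Among the 7 windows there were 2 matches: an E2F motif 99 bases upstream of the start site at position 89294619 of chromosome 4 in Cdkn2a, and a CHR motif on the opposite strand, starting 161 bases upstream, in Cdkn2b. These 2 stretches are shown because they hold the only matches, with the motif in capitals, followed by the bases nearest to a start site and outside annotated exons for Cdkn2d and Cdkn2c, whose levels fell with loss of LIN9 and whose windows held no match. The Cdkn2c stretch adjoins the start site at position 109665372 and lies inside the annotated gene. No bases are shown for the other Cdkn2c start site, at position 109666756. The Cdkn2d stretch does not adjoin its start site, at position 21291209, as the bases between them are annotated as exon. All are on the minus strand and are written 5′ to 3′.
Cdkn2a, chr4:89294685-89294744: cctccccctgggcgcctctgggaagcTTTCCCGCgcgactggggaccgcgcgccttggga
Cdkn2b, chr4:89311162-89311219: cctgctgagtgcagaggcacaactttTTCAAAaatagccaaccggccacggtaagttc
Cdkn2d, chr9:21291408-21291459: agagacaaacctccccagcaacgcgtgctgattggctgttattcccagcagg
Cdkn2c, chr4:109665373-109665472: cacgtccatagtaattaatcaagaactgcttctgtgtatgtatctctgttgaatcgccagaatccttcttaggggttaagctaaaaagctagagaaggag
A match is a description of these letters only, and binding at these sites was not measured here.

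The tables hold whole-number read counts per gene. Libraries of experiment 1 had 9485599 to 9615274 counts and those of experiment 2 had 2770741 to 2999877, so that the median depth of experiment 1 was 3.25 times higher. These depths follow a step in which the study brought its samples to the smallest number of mappable reads. Levels are given as CPM (counts scaled to a common library size) on normalised library sizes, as mean ± SD of 3 libraries. Of the targeted genes, Lin9 counts cover the whole gene while the floxed allele loses 1 exon. The log2 fold change of Lin9 with LIN9 KO was -0.31 in experiment 1 (adjusted p = 0.128), -0.81 in experiment 2 with wild-type Sav1 (adjusted p = 0.00249) and -0.16 with Sav1 KO (adjusted p = 0.583), so the libraries labelled double knockout are told from Sav1 KO by their labels and not by this count. Sav1 was lower in all Sav1 KO than in all control libraries, with a log2 fold change of -0.50 that did not pass the test (adjusted p = 0.292). It was also lower in all double knockout than in all LIN9 KO libraries, with a log2 fold change of -0.23 that did not pass either (adjusted p = 0.472). Of the exonic bases of Sav1, 25.4% are shared with exons of Atl1.

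Loss of LIN9 also moved markers of the cell types in the ventricle. The summed level of 6 cardiomyocyte markers was 12090 to 13970 CPM in LIN9 wt and 5806 to 10430 CPM in LIN9 KO libraries of experiment 1, and 4 of the 6 fell in each of the 3 LIN9 comparisons. Of all genes tested, 20.9% passed in experiment 1, 23.2% in experiment 2 with wild-type Sav1 and 23.4% with Sav1 KO. As lower, 9.80%, 10.7% and 11.7% passed, and the counts of markers stand beside these shares as a description. The summed level of 8 erythroid markers, 1 of which was at 0 everywhere, was 7561 to 10500 CPM in LIN9 wt and 33040 to 86200 CPM in LIN9 KO ventricles of experiment 1, and 4141 to 5184 CPM in control and 19870 to 37360 CPM in LIN9 KO ventricles of experiment 2. Markers of fibroblasts and cushion cells were at 1886 to 2145 CPM in LIN9 wt and 3831 to 4169 CPM in LIN9 KO of experiment 1 (5 of 6 higher). There, 7 genes of cycling cells were at 1051 to 1157 CPM against 838 to 927 CPM (3 of 7 lower). Also in experiment 1, trabecular markers were at 765 to 997 CPM against 1868 to 2377 CPM (2 of 6 higher and 2 lower), epicardial markers at 268 to 284 CPM against 481 to 550 CPM (4 of 5 higher) and macrophage markers at 66.7 to 70.2 CPM against 117 to 145 CPM (5 of 6 higher). In that experiment, smooth muscle markers were at 1426 to 1684 CPM against 1975 to 2251 CPM (1 of 4 higher). Of 3 markers of compact myocardium 2 fell there, with a median log2 fold change of -0.82. Their summed levels overlapped, at 688.6 to 755.1 CPM in LIN9 wt and 649.5 to 707.4 CPM in LIN9 KO. Smooth muscle levels overlapped in experiment 2, at 1412 to 1480 CPM in control and 1403 to 1715 CPM in LIN9 KO (1 of 4 higher and 1 lower). They also overlapped between Sav1 KO (1639 to 1706 CPM) and double knockout (1504 to 1718 CPM). Between Sav1 KO and double knockout ventricles the erythroid level was 3241 to 4262 CPM against 10090 to 29880 CPM. The part of these shifts in the results below was not tested.

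Compared per length of exonic sequence, as reads per kilobase of exon and per library size (RPKM), the CDK inhibitor genes differed in level by orders of magnitude. In LIN9 wt ventricles of experiment 1, Cdkn1c stood at 209.3 ± 22.1 RPKM. It was followed by Cdkn2d at 39.0 ± 1.82, Cdkn1b at 19.3 ± 0.622 and Cdkn2c at 9.64 ± 0.931 RPKM. Cdkn2b was at 0.722 ± 0.254 RPKM and Cdkn2a was not counted. Neighbours in this order did not overlap between libraries of that group. The controls of experiment 2 had the same order, with 173.0 ± 12.8 RPKM for Cdkn1c, 30.0 ± 5.5 for Cdkn2d, 19.8 ± 1.11 for Cdkn1b and 8.71 ± 0.845 for Cdkn2c. Cdkn2b and Cdkn2a, at 0.330 ± 0.377 and 0.0948 ± 0.164 RPKM, overlapped there. In both LIN9-deficient groups of experiment 2, LIN9 KO and double knockout, the order of Cdkn1b and Cdkn2d was exchanged: Cdkn1b was at 24.8 ± 0.929 and 19.1 ± 2.17 RPKM and Cdkn2d at 20.1 ± 4.29 and 16.1 ± 1.15 RPKM, with no overlap in either group. In LIN9 KO ventricles of experiment 1, Cdkn2d (26.7 ± 2.25 RPKM) and Cdkn1b (21.7 ± 3.39 RPKM) overlapped.

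**Figure D1:**
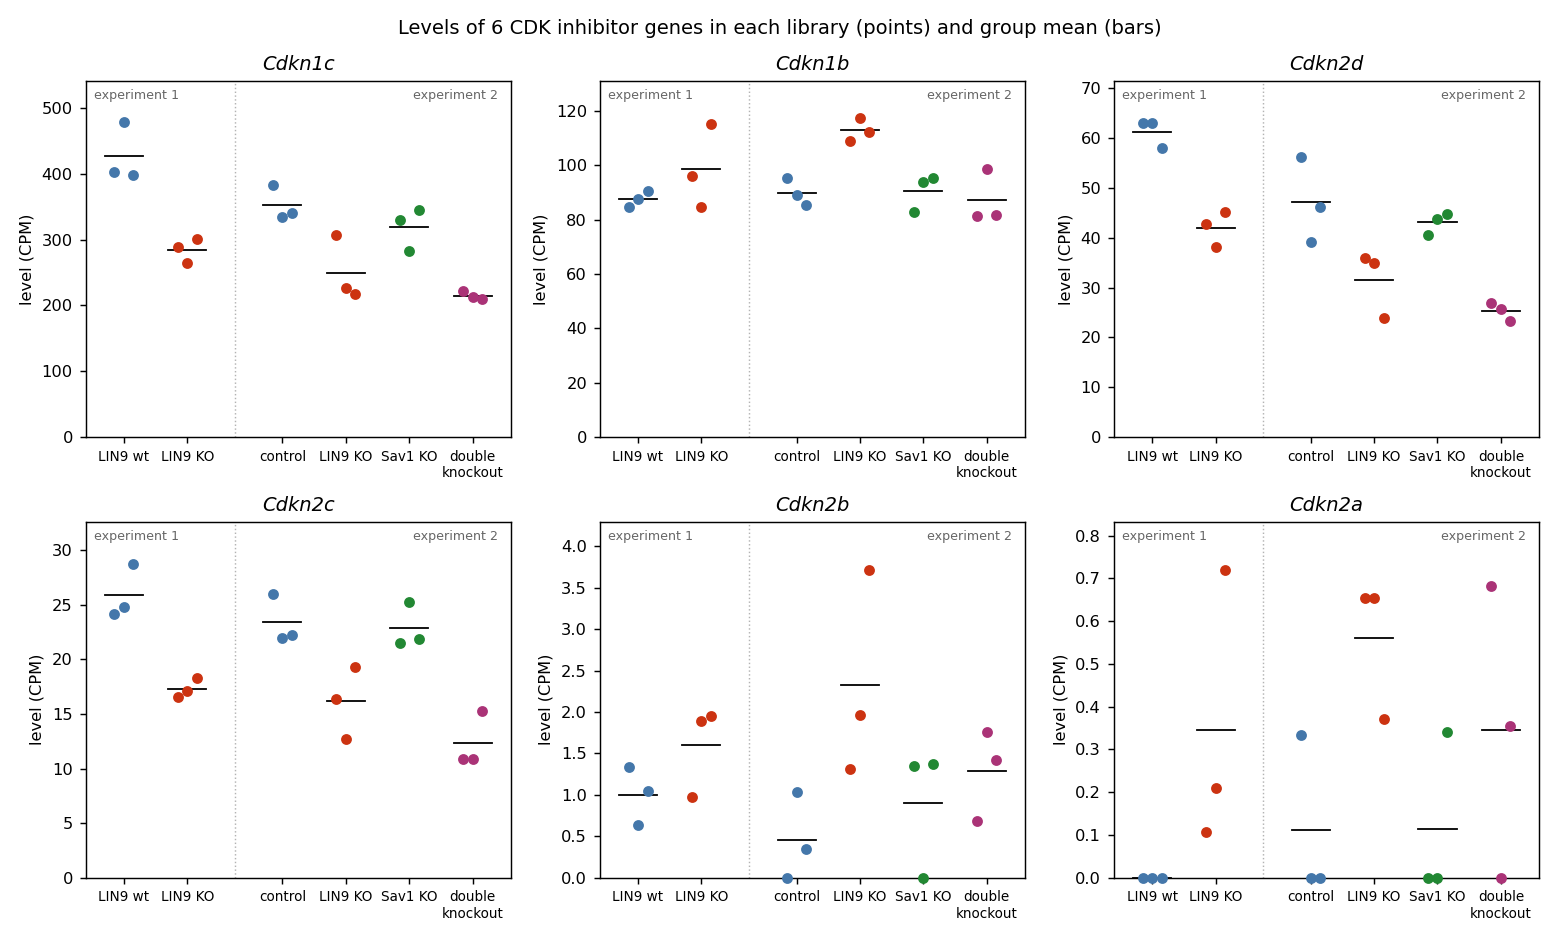
Level of each of the 6 CDK inhibitor genes in CPM (vertical axis, starting at 0, with a scale of its own in each panel) in the 18 libraries, by group. Points are libraries and bars are means of 3 libraries; Cdkn1c, Cdkn2d and Cdkn2c are lower in the LIN9 KO and double knockout groups, Cdkn1b is highest in LIN9 KO of experiment 2, and Cdkn2b and Cdkn2a rest on few counts.

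The first comparison asked which CDK inhibitor genes change when LIN9 is lost and Sav1 is intact, and experiments 1 and 2 each address it with their own controls. Cdkn1c, Cdkn2c and Cdkn2d fell in both experiments, to about the same degree. Cdkn1b did not fall in either experiment. A rise of it passed the test in experiment 2 and not in experiment 1, and the difference between the experiments was not past the threshold. Cdkn2a and Cdkn2b were near the limit of detection. In experiment 1, 3 of the 6 genes passed an adjusted p of 0.05 in edgeR's quasi-likelihood test as lower, where 9.80% of the 19752 genes tested did so and 20.9% passed in either direction, a share that was 13.8% without LIN9 wt replicate 3 and 14.4% to 21.6% without another library. Cdkn2a was the only other gene past the threshold, but it could be tested only through its counts in LIN9 KO libraries and is not counted here. In experiment 2, all 5 genes that could be tested passed, 3 of them lower, where 23.2% of 17675 genes passed, 10.7% as lower. Each of the 3 genes that fell had all LIN9 KO libraries below all controls in both experiments, as did 17.9% of genes in experiment 1 and 17.1% in experiment 2. Median log2 fold changes of all genes tested were 0.0151 and 5.13e-04.

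Cdkn1c, which encodes p57, was the highest of these genes and carries the largest change in absolute level. In experiment 1 it was at 403, 479 and 398 CPM in LIN9 wt and at 289, 265 and 301 CPM in LIN9 KO libraries. The groups did not overlap, with means of 427 ± 45.0 and 285 ± 18.5 CPM. On the log2 scale the level changed by -0.58 (SE 0.116, 95% interval -0.83 to -0.34, adjusted p = 0.00209), which is 33.3% lower. In experiment 2, Cdkn1c was at 383, 335 and 341 CPM in control and at 306, 226 and 218 CPM in LIN9 KO libraries. These groups did not overlap either, although the highest LIN9 KO library lay close to the controls. This gave a log2 fold change of -0.50 (SE 0.113, adjusted p = 0.00164).

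Cdkn2d, which encodes the INK4 protein p19, was at 63.0, 63.0 and 58.0 CPM in LIN9 wt and at 42.8, 38.2 and 45.2 CPM in LIN9 KO libraries of experiment 1. All LIN9 KO libraries were below all LIN9 wt libraries. With a log2 fold change of -0.54 (SE 0.104, adjusted p = 0.00154), Cdkn2d was 31.4% lower. In experiment 2 it was at 56.3, 39.1 and 46.1 CPM in control and at 36.0, 35.0 and 23.8 CPM in LIN9 KO libraries, again with no overlap, but with a wide spread in both groups. The log2 fold change was -0.57 (SE 0.154, adjusted p = 0.00664), and the call was lost without control replicate 1 or without LIN9 KO replicate 3, with adjusted p up to 0.0692.

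Cdkn2c, which encodes p18, stood at 24.2, 24.8 and 28.8 CPM in LIN9 wt and at 16.52, 17.1 and 18.3 CPM in LIN9 KO ventricles of experiment 1. The LIN9 KO libraries lay close together and below every LIN9 wt library. That is 33.0% less RNA, or -0.58 on the log2 scale (SE 0.127, adjusted p = 0.00403). In experiment 2, the levels were 26, 22.0 and 22.2 CPM in control and 16.4, 12.7 and 19.3 CPM in LIN9 KO libraries, which did not overlap. The log2 fold change was -0.54 (SE 0.185, adjusted p = 0.0326), which was lost under DESeq2 (adjusted p = 0.114), with the 6 libraries fitted alone and in 5 of the 12 fits that left out a library, those without any 1 of the 3 controls or without LIN9 KO replicate 1 or 2, with adjusted p up to 0.193.

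Cdkn1b, which encodes p27, did not share this fall. In experiment 1 it was at 84.8, 87.7 and 90.4 CPM in LIN9 wt and at 96.2, 84.8 and 115 CPM in LIN9 KO libraries, and these overlapped. A log2 fold change of 0.17 had an interval from -0.07 to 0.42 (adjusted p = 0.333). In experiment 2, Cdkn1b was at 95.3, 89.2 and 85.3 CPM in control and at 109, 117 and 112 CPM in LIN9 KO libraries, all LIN9 KO libraries being higher. Of all genes, 17.1% had all LIN9 KO libraries below all controls there, and the share with all above is not given here. The log2 fold change of Cdkn1b was 0.33 (SE 0.106, interval 0.11 to 0.55, adjusted p = 0.0244), a rise of 1.25-fold. This call was lost under DESeq2 (adjusted p = 0.0723) and without control replicate 2, control replicate 3 or LIN9 KO replicate 2, with adjusted p up to 0.111.

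Cdkn2b, which encodes p15, had 13, 6 and 10 counts in LIN9 wt and 9, 18 and 19 counts in LIN9 KO libraries of experiment 1. These overlapped, and the log2 fold change of 0.67 had an interval from -0.15 to 1.5 (adjusted p = 0.257). In experiment 2 it had 0, 3 and 1 counts in control and 4, 6 and 10 counts in LIN9 KO libraries. The fitted log2 fold change of 2.22 (SE 0.793, adjusted p = 0.0412) thus rests on 4 against 20 counts. It was lost under DESeq2 (adjusted p = 0.113), without robust estimates, with the 6 libraries fitted alone, without control replicate 1 or 3 and without LIN9 KO replicate 2 or 3, with adjusted p up to 0.176. Over the alternatives the fitted value ranged from 1.67 to 3.45.

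Cdkn2a had 0 counts in each LIN9 wt library of experiment 1 and 1, 2 and 7 counts in the LIN9 KO libraries. A count of 0 allows a level of up to 0.308 to 0.316 CPM at the depth of the LIN9 wt libraries. The gene passed the filter on low counts through the LIN9 KO libraries alone, so that its adjusted p of 0.0394 supports no statement on the gene and no fold is given. In experiment 2 it had 1, 0 and 0 counts in control, 2, 2 and 1 in LIN9 KO, 0, 0 and 1 in Sav1 KO and 2, 0 and 1 in double knockout libraries, and it was left out by the filter. Over all libraries of experiment 2, a count of 0 would allow up to 0.980 to 1.12 CPM, so a difference below this was not detectable.

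Haemoglobin genes took 0.785% to 1.11% of the counts in LIN9 wt and 3.52% to 8.64% in LIN9 KO libraries of experiment 1. With library sizes taken without haemoglobin and mitochondrial genes, the log2 fold changes of Cdkn1c, Cdkn2c and Cdkn2d in experiment 1 were -0.58, -0.58 and -0.54 and those in experiment 2 were -0.52, -0.57 and -0.60. All of these passed the test with adjusted p from 0.00142 to 0.0255.

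**Figure D2:**
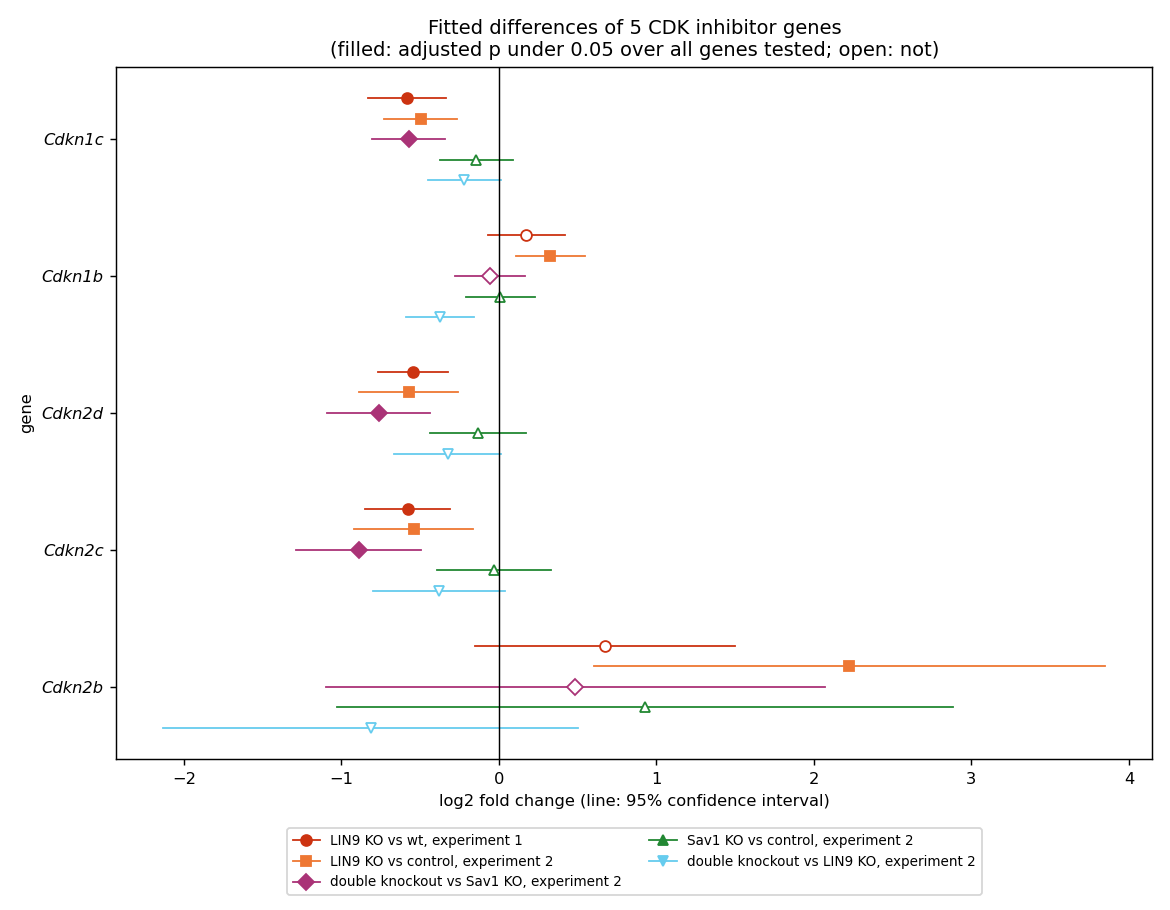
Fitted log2 fold changes (horizontal axis) with 95% confidence intervals for 5 CDK inhibitor genes (vertical axis) in 5 comparisons, filled where the adjusted p over all genes tested was under 0.05. The LIN9 comparisons of Cdkn1c, Cdkn2d and Cdkn2c lie between -0.89 and -0.50, the Sav1 comparisons are all open, and the intervals of Cdkn2b are wide.

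The second comparison asked whether the LIN9 effect is seen when Sav1 is lost as well. In Sav1 KO ventricles, loss of LIN9 lowered Cdkn1c, Cdkn2c and Cdkn2d again, and Cdkn1b and Cdkn2b did not pass the test. Thus 3 of the 5 genes tested passed, all lower, where 23.4% of all genes passed and 11.7% did so as lower. The same 3 genes had all double knockout libraries below all Sav1 KO libraries, as did 19.3% of genes. Cdkn1c was at 330, 283 and 346 CPM in Sav1 KO and at 222, 213 and 209.8 CPM in double knockout libraries. The double knockouts were the lowest and most uniform group for this gene (215 ± 6.27 CPM), and the log2 fold change was -0.57 (SE 0.114, adjusted p = 4.02e-04).

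Cdkn2d was at 40.7, 43.8 and 44.8 CPM in Sav1 KO and at 27, 25.7 and 23.4 CPM in double knockout libraries, without overlap. Its log2 fold change was -0.76 (SE 0.160, adjusted p = 7.37e-04). Cdkn2c fell from 21.5, 25.3 and 21.9 CPM to 10.9, 10.9 and 15.2 CPM, again without overlap. With a log2 fold change of -0.89 (SE 0.194, adjusted p = 0.00108), it was 46.0% lower. Cdkn1b was at 82.7, 93.7 and 95.4 CPM in Sav1 KO and at 81.3, 98.5 and 81.5 CPM in double knockout libraries, which overlapped. Its log2 fold change was -0.06 (interval -0.28 to 0.16, adjusted p = 0.757). Cdkn2b had 4, 0 and 4 against 2, 5 and 4 counts, with a log2 fold change of 0.49 (interval -1.10 to 2.07). All 3 calls held under each of the 21 alternatives tried.

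The third comparison asked what loss of Sav1 does to these genes. With LIN9 wild-type, none of the 5 genes tested passed in edgeR's quasi-likelihood test, and 0 had an unadjusted p under 0.05. Of all genes, 0.0170% (3 genes) passed and 3.95% had an unadjusted p under 0.05. The number over all genes was 33 with the 6 libraries fitted alone, 22 with no filter on low counts and 0 to 7 when a library was left out, and 0 of the 5 genes passed in any of these. The intervals of the log2 fold changes were -0.37 to 0.09 for Cdkn1c, -0.21 to 0.23 for Cdkn1b, -0.44 to 0.17 for Cdkn2d and -0.39 to 0.33 for Cdkn2c. They do not reach the fitted LIN9 effects of Cdkn1c, Cdkn2d and Cdkn2c. For Cdkn2b, on few counts, the interval of -1.03 to 2.88 included its fitted LIN9 effect of 2.22. DESeq2 called 0 of the 5 genes as well.

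In LIN9 KO ventricles, loss of Sav1 changed none of the 5 genes at an adjusted p of 0.05, where 0.0113% of all genes (2 genes) passed. That number over all genes was 354 without LIN9 KO replicate 3, 309 with no filter on low counts, 84 with a replicate block, 27 without control replicate 1 and 0 to 13 under the other alternatives, and 0 of the 5 genes passed under any of them. Cdkn1b came nearest: all 3 double knockout libraries (81.3 to 98.5 CPM) were below all 3 LIN9 KO libraries (109 to 117 CPM), which was the case for 7.69% of all genes. Its log2 fold change was -0.37 (SE 0.107, interval -0.59 to -0.16) with an unadjusted p of 0.00154 and an adjusted p of 0.15, and the adjusted p ranged from 0.0693 to 0.462 over the alternatives. It was the only one of the 5 with an unadjusted p under 0.05, as 11.7% of all genes had. The log2 fold changes of the others were -0.22 for Cdkn1c, -0.32 for Cdkn2d, -0.38 for Cdkn2c and -0.81 for Cdkn2b, and their intervals included 0. DESeq2 called 0 of the 5.

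The interaction term, which is the difference between the LIN9 effects with and without Sav1, passed for 0 of the 5 genes and for 0% of all genes, by edgeR, and for 0 genes by DESeq2. Over all genes, 62 passed without LIN9 KO replicate 3, 17 with no filter on low counts, 1 without control replicate 1 and 0 under the other alternatives, and none of these were among the 5. Cdkn1b had the lowest unadjusted p of the 5, at 0.0169 (log2 difference -0.38, interval -0.69 to -0.07, adjusted p = 0.709), where 6.38% of all genes had an unadjusted p under 0.05. For Cdkn1c the difference was -0.08 with an interval from -0.41 to 0.25. For Cdkn2d it was -0.19 (-0.65 to 0.26) and for Cdkn2c -0.35 (-0.90 to 0.20). For Cdkn2b, on few counts, it was -1.74 (-4.11 to 0.63). Thus a difference between the LIN9 effects in the Sav1 backgrounds was not detected in these libraries. Intervals of these widths leave room for one.

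Set against control, double knockout ventricles had lower Cdkn1c (log2 fold change -0.72, adjusted p = 3.32e-05), Cdkn2c (-0.92, adjusted p = 8.82e-04) and Cdkn2d (-0.90, adjusted p = 1.26e-04). These are 3 of 5 genes tested, where 20.8% of all genes passed. Cdkn1b was at the control level (-0.05, interval -0.27 to 0.17). Set against Sav1 KO, LIN9 KO ventricles had lower Cdkn1c (-0.35, adjusted p = 0.0198), Cdkn2c (-0.51, adjusted p = 0.0405) and Cdkn2d (-0.44, adjusted p = 0.0344) and higher Cdkn1b (0.32, adjusted p = 0.0262). These are 4 of 5 genes, where 26.4% of all genes passed. The Cdkn1c libraries overlapped in that comparison. Under DESeq2, Cdkn1b (adjusted p = 0.0734), Cdkn2c (adjusted p = 0.132) and Cdkn2d (adjusted p = 0.102) did not pass there. With the 6 libraries fitted alone, Cdkn1c and Cdkn2c did not pass. All 4 calls of this comparison depended on single libraries, with between 0 (without Sav1 KO replicate 1) and 4 genes passing when a library was left out. Leaving out LIN9 KO replicate 2, Sav1 KO replicate 2 or Sav1 KO replicate 3 left 1 gene, and leaving out replicate 3 of LIN9 KO or replicate 2 of the double knockouts left 2.

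A fit of all 18 libraries gave the mean LIN9 effect over experiment 1 and both Sav1 backgrounds of experiment 2. It was -0.55 for Cdkn1c (SE 0.0683, adjusted p = 8.67e-08), -0.67 for Cdkn2c (SE 0.0963, adjusted p = 1.11e-06) and -0.62 for Cdkn2d (SE 0.0815, adjusted p = 1.95e-07), which correspond to 31.5%, 37.0% and 35.1% less RNA. In this fit 42.3% of the 18737 genes tested passed, 20.4% as lower. Cdkn1b was at 0.15 (SE 0.0641, adjusted p = 0.0565) and passed with a replicate block (0.15, adjusted p = 0.0391) and without LIN9 KO replicate 2 of experiment 1 or, in experiment 2, without control replicate 1, Sav1 KO replicate 2 or double knockout replicate 1 or 3, with adjusted p from 0.0184 to 0.152 over all 26 alternatives. Cdkn2b was at 1.15 (SE 0.402, adjusted p = 0.0213), on few counts, and was lost without control replicate 1, LIN9 KO replicate 3 or double knockout replicate 2 of experiment 2, with adjusted p up to 0.0631. Cdkn2a passed as well (adjusted p under the threshold), again only because LIN9 KO and double knockout libraries hold 18 of its 20 counts. The LIN9 effect of experiment 2 with wild-type Sav1 minus that of experiment 1 passed for none of the 6 genes (0% of all genes) by edgeR and none by DESeq2, and none of the 6 had an unadjusted p under 0.05, as 5.58% of all genes had. The interval of this difference was -0.25 to 0.43 for Cdkn1c, -0.42 to 0.36 for Cdkn2d and -0.42 to 0.49 for Cdkn2c.

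The summed level of the 6 genes per length was 277.8 ± 22.4 RPKM in LIN9 wt and 196.0 ± 15 RPKM in LIN9 KO ventricles of experiment 1. In experiment 2 it was 231.8 ± 19.8 in control, 175.7 ± 25.5 in LIN9 KO, 213.3 ± 15.9 in Sav1 KO and 146.4 ± 3.31 RPKM in double knockout ventricles. The libraries with and without LIN9 did not overlap in experiment 1 (263.5 to 303.7 against 180.6 to 210.5 RPKM). Cdkn1a (p21), the Cip/Kip gene outside the set, moved the other way, with a log2 fold change of 2.08 in experiment 1 (adjusted p = 1.05e-08), 2.15 in experiment 2 (adjusted p = 4.94e-13) and 2.25 with Sav1 KO (adjusted p = 8.14e-14). With Cdkn1a added, the sum of the 7 genes was 288.0 ± 22.9 RPKM in LIN9 wt and 239.2 ± 17.2 RPKM in LIN9 KO of experiment 1, and 241.6 ± 19.4 RPKM in control and 219.4 ± 28.2 RPKM in LIN9 KO of experiment 2. Libraries with and without LIN9 did not overlap in this sum in experiment 1 (273.5 to 314.5 against 222.3 to 256.7 RPKM) or between Sav1 KO and double knockout (205.6 to 238.9 against 189.0 to 194.8 RPKM), but they did between control and LIN9 KO of experiment 2.

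The composition of the CDK inhibitor transcripts can be read from the share of each gene in their sum. That of Cdkn1c in the summed RPKM of the 7 genes was 72.6% in LIN9 wt and 58.4% in LIN9 KO ventricles of experiment 1. In experiment 2 it was 71.6% in control, 55.6% in LIN9 KO, 70.2% in Sav1 KO and 54.9% in double knockout ventricles. Cdkn2d went from 13.6% to 11.2% in experiment 1 and was at 12.3%, 9.11%, 12.3% and 8.39% in the groups of experiment 2 in the same order. Cdkn1b had 6.71% and 9.04% in experiment 1 and 8.19%, 11.4%, 8.96% and 9.98% in experiment 2. Cdkn1a took 3.54% and 18.1% in experiment 1 and 4.09%, 20.0%, 4.29% and 23.7% in experiment 2. As shares of a sum, these values depend on each other and were not tested.

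**Figure D3:**
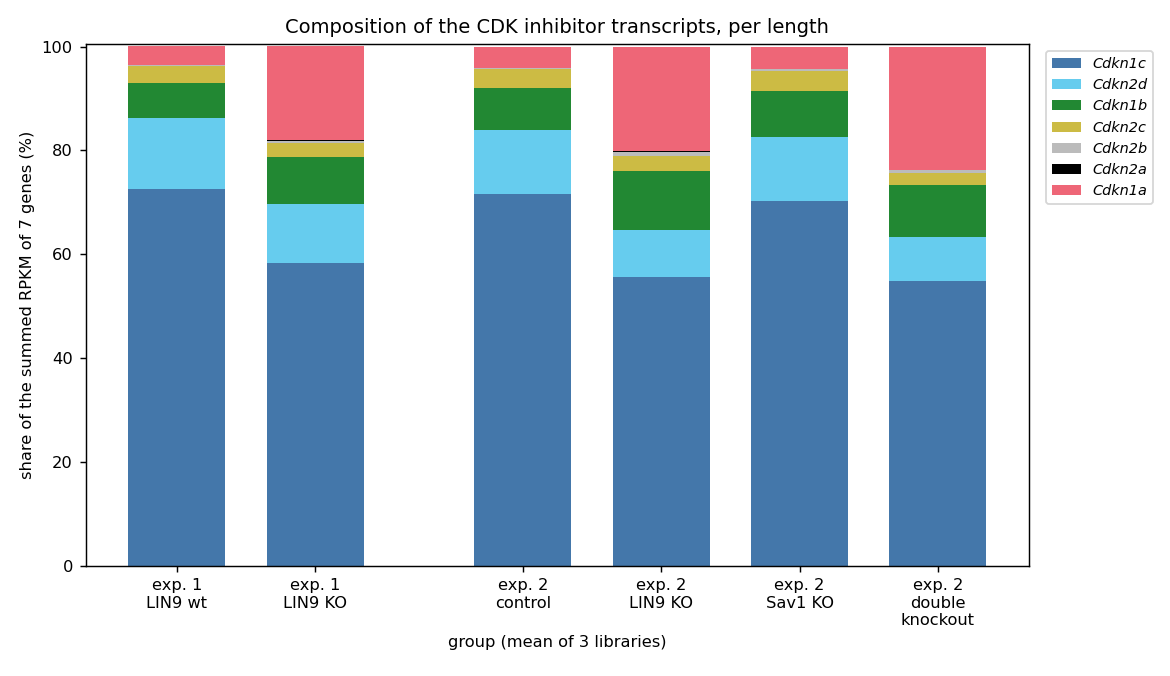
Mean share (%) of each of 7 CDK inhibitor genes, Cdkn1a included, in their summed RPKM in the 6 groups (stacked bars, each the mean of 3 libraries). Cdkn1c makes up 70.2% to 72.6% where LIN9 is intact and 54.9% to 58.4% where it is lost, and Cdkn1a 3.54% to 4.29% and 18.1% to 23.7%.

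Genes of the pathways around the CDK inhibitors were listed by role, 57 genes in all. With loss of LIN9, 7 rose and 13 fell of 54 tested in experiment 1, 9 rose and 9 fell of 53 in experiment 2 with wild-type Sav1, and 8 rose and 12 fell of 53 with Sav1 KO. Of all genes tested, 20.9%, 23.2% and 23.4% passed in these comparisons, 9.80%, 10.7% and 11.7% as lower, and the counts of the lists stand beside these shares as a description. Their median log2 fold changes were -0.03, 0.01 and -0.06, beside 0.0151, 5.13e-04 and 0.0307 for all genes tested. Of the 5 partners that INK4 proteins bind or displace (CDK4, CDK6 and the D-type cyclins), none passed in experiment 1, 1 rose in experiment 2 with wild-type Sav1, and 1 rose and 1 fell with Sav1 KO. The 6 cyclins and kinases that Cip/Kip proteins bind included 3 that fell in experiment 1, 3 in experiment 2 and 4 with Sav1 KO, and none rose, with medians of -0.36, -0.59 and -0.50. Among them was Ccnb1, which encodes cyclin B1, with log2 fold changes of -0.92 (adjusted p = 4.28e-05), -0.96 (adjusted p = 2.06e-07) and -1.10 (adjusted p = 3.32e-08). Ccna2, which encodes cyclin A2, was at -0.82 (adjusted p = 8.55e-05), -0.91 (adjusted p = 1.39e-07) and -1.13 (adjusted p = 3.78e-09). Ccne1, which encodes cyclin E1, was at -0.51 (adjusted p = 0.0146) in experiment 1 and at -0.95 (adjusted p = 2.32e-04) in experiment 2.

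Downstream of INK4 proteins, the 3 genes of the Rb family held 1 rise and 1 fall in experiment 1 and with Sav1 KO, and 1 fall in experiment 2 with wild-type Sav1. Rb1 rose in experiment 1 (log2 fold change 0.55, adjusted p = 0.0361) and with Sav1 KO (1.2, adjusted p = 2.49e-04), and was at 0.56 with wild-type Sav1 in experiment 2 (adjusted p = 0.0658). Rbl1, which encodes the related protein p107 and is named here after its values were seen, fell in experiment 1 (-0.38, adjusted p = 0.032) and in experiment 2 with wild-type Sav1 (-0.49, adjusted p = 0.00129). Of 8 tested genes for the breakdown and export of p27, 3 fell in experiment 1, 2 in experiment 2 and 3 with Sav1 KO, and none rose. For this and the other lists here, the shares of all genes tested that passed were 20.9%, 23.2% and 23.4%, in the same order. As lower, 9.80%, 10.7% and 11.7% of all genes passed. Of the 3 Foxo factors, which are known to activate Cdkn1b, 1 rose in experiment 1, 2 in experiment 2 with wild-type Sav1 and 1 with Sav1 KO, and none fell. Foxo3 rose in experiment 1 (0.52, adjusted p = 0.00682) and in experiment 2 with wild-type Sav1 (1.05, adjusted p = 2.39e-06). Of 17 known repressors of the Cdkn2a-Cdkn2b locus, mostly Polycomb genes, 5 rose and 3 fell in experiment 1, 2 rose and 1 fell in experiment 2 with wild-type Sav1, and 3 rose with Sav1 KO. Of 5 activators of the locus, 1 fell in experiment 1, 2 rose in experiment 2 with wild-type Sav1 and 1 fell with Sav1 KO. Cbx7, a Polycomb subunit, rose in experiment 1 (0.95, adjusted p = 0.0264) and was at 0.41 in experiment 2 (adjusted p = 0.549). Of 5 tested neighbours in the imprinted domain of Cdkn1c, 2 fell in experiment 1, and of 4 in experiment 2, 2 fell and 1 rose. Kcnq1, which encodes a potassium channel, fell in both, by 1.16 (adjusted p = 5.51e-05) and 0.98 (adjusted p = 3.05e-04) on the log2 scale. The genes of these lists were chosen with results of these data known, so their counts are a description.

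**Figure D4:**
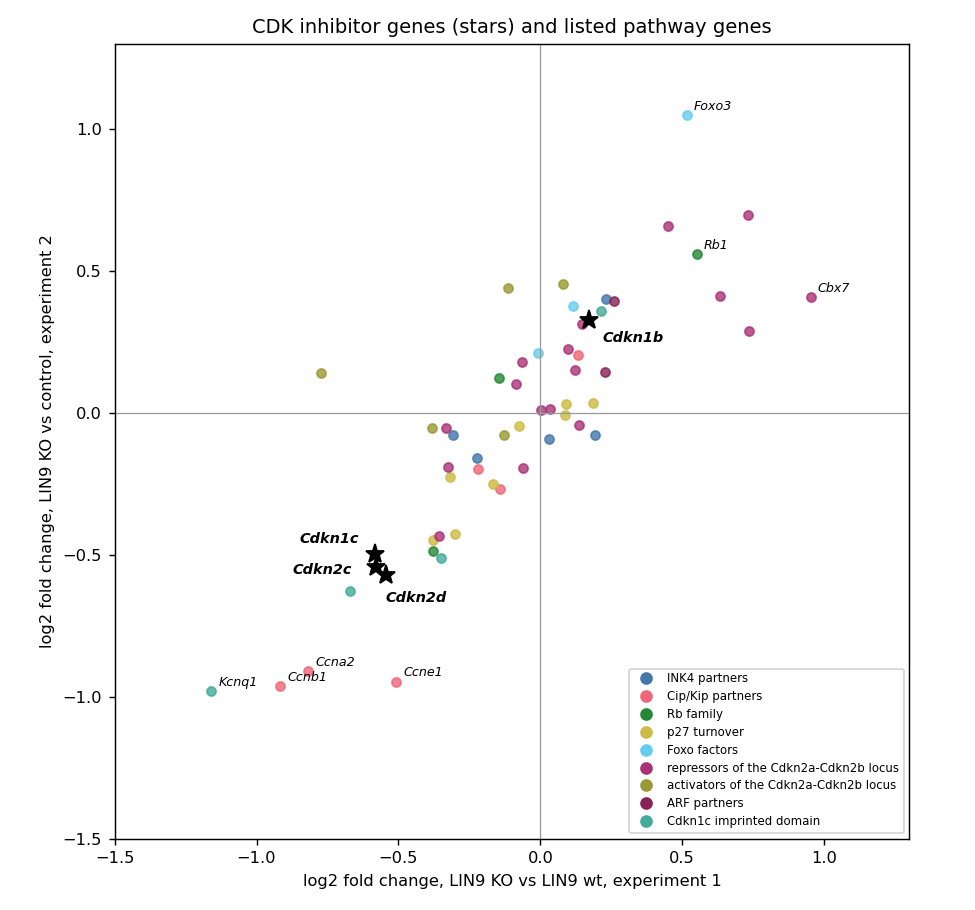
Log2 fold change with LIN9 KO in experiment 1 (horizontal axis) and in experiment 2 with wild-type Sav1 (vertical axis) for 53 pathway genes (circles, coloured by list) and 4 CDK inhibitor genes (stars). Cdkn1c, Cdkn2c and Cdkn2d lie together at lower left and Cdkn1b lies at upper right; Cdkn2b (0.67 and 2.22) is outside the axes and Cdkn2a was not tested in experiment 2.

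To describe which genes had a pattern most like that of each member, the root mean square difference of log2 CPM over the 18 libraries was taken among 12116 genes at 5 CPM or more in both experiments, each gene centred within each experiment. Cdkn1c was nearest to Akt1 (0.0944), Ptpa (0.0988) and Ankrd40 (0.0992). Cdkn1b was nearest to Pafah1b3 (0.0904), Clta (0.0956) and Sh3bp1 (0.0958). Cdkn2d was nearest to Nkx2-5 (0.133), the cardiac transcription factor whose promoter drives the Cre and 1 of the 6 cardiomyocyte markers, and to Prkaca (0.135) and Gm10282 (0.136). Cdkn2c was nearest to Isoc1 (0.138), Ube2c (0.14), a ubiquitin-conjugating enzyme of mitosis, and 2310061I04Rik (0.143). The deviation of each gene around its own means, beside which these distances stand, was 0.311 for Cdkn1c, 0.167 for Cdkn1b, 0.36 for Cdkn2d and 0.378 for Cdkn2c. Between members, Cdkn1c and Cdkn2d were closest (0.14), then Cdkn1c and Cdkn2c (0.224) and Cdkn2c and Cdkn2d (0.251). Distances from Cdkn1b to these 3 genes were 0.387 to 0.44. All of these distances share the same libraries, and those of the lower genes hold more counting error.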

How the data were processed

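The deposited tables hold whole-number read counts per Ensembl gene. The authors mapped reads to mm10 with TopHat2 2.1.0 and Bowtie2 (default settings), reduced every sample to the smallest number of mappable reads and counted with summarizeOverlaps. The overlap mode and strand are not given in the sources used here. Columns of the authors' own comparisons (fold changes and p-values) were not used, and 0 columns of library values were left unused. Identifiers occurring more than once (4 per table) were kept once. ChIP-seq samples (4) are not analysed here.

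Counts were normalised by TMM, filtered at a mean count above 1 and tested with edgeR 4.0.16 (R 4.3.3; quasi-likelihood, robust), in 1 fit for the 6 libraries of experiment 1, 1 for the 12 of experiment 2 and 1 for all 18. P-values were adjusted over all genes tested by Benjamini-Hochberg, with a threshold of 0.05. Alternatives were other scalings and filters, DESeq2 1.42.0, a replicate block, fits of single comparisons and leaving out each library. Log2 CPM used a prior count of 2, and RPKM the exonic length of GENCODE M21. Intervals for a count of 0 (3 counts) cover counting error only. Promoters came from RefSeq (GRCm38.p6).

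The members and lists were chosen with earlier results of these data known. Named genes were the members, Lin9, Sav1, Cdkn1a, the 3 pathway genes with the largest change in each comparison among those that passed, the 3 genes most like each member at 5 CPM or more, and overlapping genes. Rbl1 was named after its values were seen. Replicate numbers are not said to mark a shared animal or day. Correlations of same-numbered libraries over all tested genes were 0.0891 to 0.393 for control and LIN9 KO in experiment 2, and in no pair of groups were all above 0.1; among genes of at least 5 CPM they were all above it for control, LIN9 KO and Sav1 KO with each other (0.102 to 0.637) and not elsewhere.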

Additional observations from a re-analysis of the deposited data

How the results depend on the processing

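Over 1120 alternative values of the members' fold changes, 1061 kept their direction, where called, and their side of the threshold, 53 lost and 6 gained a call, and 0 called values reversed. The calls of Cdkn1c, Cdkn2c and Cdkn2d in experiment 1 held under all 14 alternatives, those with Sav1 KO and of the double knockout under all 21 and those of the mean effect under all 26. In experiment 2 with wild-type Sav1, the number of members called was 5, against 2 under DESeq2, 3 when the 6 libraries were fitted alone, and 2 to 5 when a library was left out (Cdkn1c was called in each of these fits). For LIN9 KO against Sav1 KO, it was 4, against 1 under DESeq2, 2 with the 6 libraries alone, and 0 to 4 without a library. The cause of these lost calls was not tested. Fits that leave libraries out also hold fewer samples, and the part of this in the lost calls was not tested either. Cdkn2a in experiment 1 was not called under DESeq2 or without any 1 of the LIN9 wt libraries, and was not tested without LIN9 KO replicate 3, which holds 7 of its 10 counts, or with a filter of CPM above 1 in 3 libraries. With a replicate block, for which the numbers are no more than a hint, the log2 fold change of Cdkn1c in experiment 1 was -0.58 (adjusted p = 1.3e-04), and no call of a member changed apart from that of Cdkn1b in the mean LIN9 effect. Depth limits Cdkn2a and Cdkn2b, above all in experiment 2.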
